A study of Drosophila melanogaster with 5 samples.

Results

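A set of 7 microRNA genes known from neurons or the eye was compared between the intestine and the rest of the body of adult Drosophila melanogaster males. They are mir-124, mir-137, mir-210, mir-219, mir-929, mir-987 and mir-1000, and they were taken by name from the deposited count table. Each gene contributed both arms of its hairpin, which gave 14 of the 479 mature microRNA arms listed. The intestine group held 3 libraries of dissected intestines and the carcass group 2 libraries of the tissue that remained after dissection. Per the labels, RNA was prepared 3 times from each tissue, but the count table holds only 2 carcass libraries. Each carcass mean and SD therefore rests on 2 libraries. All flies were w1118 males, 2 to 3 days old, reared on standard food. This stock is white-eyed and is otherwise described as wild type, and no further allele or treatment is named. The labels do not list the organs left in the carcass or say how many animals a library holds.

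MicroRNAs are short RNAs that are cut from hairpin precursors and guide Argonaute proteins to messenger RNAs with matching sites. Each hairpin can give an arm from its 5′ side (5p) and an arm from its 3′ side (3p). Usually one of them is retained as the guide and the other is degraded. miR-124 is a conserved microRNA of neurons, and in flies it is found throughout the central nervous system. miR-210 is expressed in the fly eye and brain, and photoreceptors degenerate when its level is disturbed. An intestine carries enteric nerves and hormone-producing endocrine cells along its wall, but its bulk is absorptive epithelium and visceral muscle.

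The intestine libraries held 329424 to 547937 microRNA reads and the carcass libraries 1654625 and 3038873. A count of 3 reads corresponded to 6.29, 9.22 and 10.8 CPM (reads scaled to a common library size) in intestine libraries 1 to 3, against 1.42 and 0.815 CPM in carcass libraries 1 and 2. The scaling used trimmed mean of M-values (TMM) factors. The tissue labels were compared with microRNAs that mark other organs. These were chosen with earlier results of these data known, so the comparison is a description and not an independent check. Those of the intestine (miR-958, miR-956 and miR-314) summed to between 334118 and 367687 CPM in the intestine libraries, and to 2142 and 2674 CPM in the carcass libraries. Those of the testis clusters (38 arms) summed to between 40.0 and 56.7 CPM in the intestine libraries, against 2647 and 2688 CPM in the carcass libraries, and 13 of the 38 arms had no intestine read.

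Of the 7 genes, 6 were lower in the intestine by their more read arm, and mir-137 was higher. Over all 222 tested arms, 48.2% were called lower and 34.7% higher. mir-219 counts among the 6 through an arm that passed the low-count filter in the carcass only. Together the 12 arms of the 6 hairpins other than mir-137 gave 179, 139 and 149 reads in the intestine libraries. These were 0.0327, 0.0377 and 0.0452% of microRNA reads. In the carcass libraries the same 12 arms gave 32724 and 87535 reads, or 1.98 and 2.88%. Most of these carcass reads came from miR-210-3p (17600 and 54021) and miR-124-3p (8665 and 20081). Both arms of mir-137 together gave 344, 189 and 136 reads in the intestine libraries and 600 and 904 in the much deeper carcass libraries. So mir-137 alone gave more reads than the other 6 hairpins together in intestine libraries 1 and 2, but fewer in intestine library 3 and in both carcass libraries. These are bulk libraries, in which fewer cells of a type and less RNA per cell cannot be told apart.

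Of the 14 arms, 9 passed the filter on low counts, and 8 of these 9 were lower in the intestine and 1 was higher (edgeR quasi-likelihood test, adjusted p under 0.05). The libraries of the tissues did not overlap for any of the 9. Over all 222 tested arms, 48.2% were called lower and 34.7% higher, or 82.9% in either direction, and 49.5% lay lower and 38.3% higher in the intestine without overlap. A call in itself was therefore common in this comparison. Library totals in place of TMM factors shifted the split of all calls from 107 lower and 77 higher to 126 lower and 50 higher, but left 8 lower and 1 higher among the 9. The filter asked for 18.3 CPM, without TMM scaling, in at least 2 libraries. miR-210-5p, miR-219-5p and miR-929-3p met it in the carcass only, so they entered the test through the tissue in which they were high, and their direction is no support for the set. The remaining 6 tested arms met it in all 5 libraries.

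**Figure D1:**
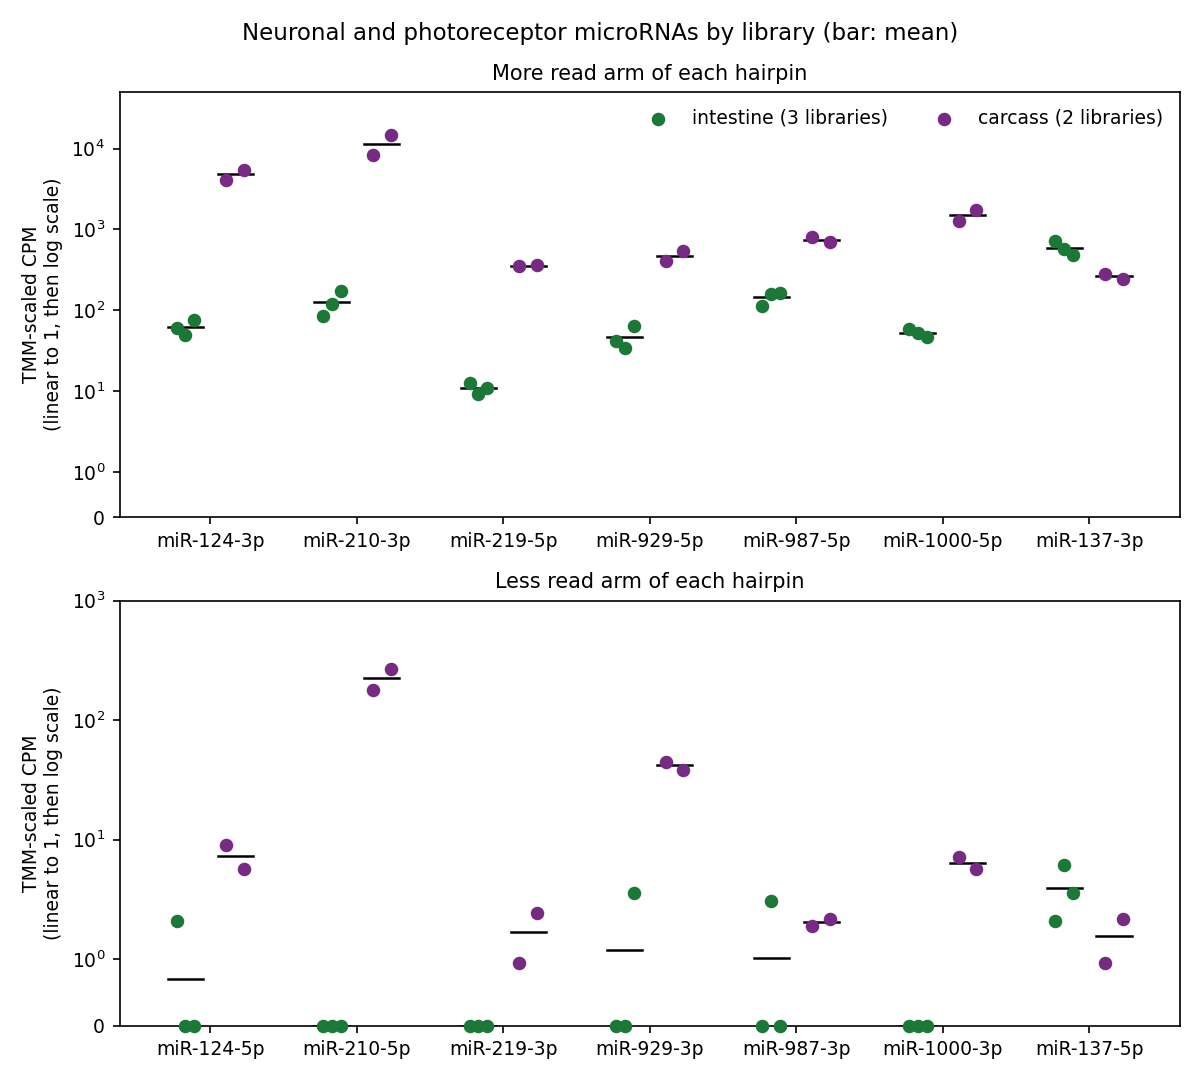
TMM-scaled CPM of the more read arm (upper panel) and the less read arm (lower panel) of each of the 7 hairpins, on an axis that is linear to 1 and logarithmic above. Points are libraries (3 intestine, 2 carcass) and bars are means. Every more read arm except miR-137-3p lies lower in the intestine, with no overlap between the tissues.

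Among the microRNAs of neurons, miR-124-3p measured 60.9, 49.2 and 75.9 CPM in intestine libraries 1 to 3, against 4106 and 5454 CPM in carcass libraries 1 and 2. The tissues did not overlap, and the highest intestine library was far below the lower carcass library. This gave a log2 fold change of -6.28 with an SE of 0.30 (n = 3 and 2 libraries, adjusted p = 1.09e-19 in edgeR). Its other arm, miR-124-5p, had 1, 0 and 0 intestine reads, against 19 and 21 carcass reads, and was not tested. Set on TMM-scaled depth, miR-124-5p was 7.45-fold lower in the intestine, with a 95% counting interval of 1.26 to 302. In the BDGP6.54 annotation mir-124 (FBgn0262398) lies on the plus strand of chromosome 2L at 17566370 to 17566469, outside any protein-coding gene. Its nearest microRNA gene, mir-287, lies 8141 bases away on the same strand, and its listed arm, miR-287-3p, had 0 reads in all 5 libraries.

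miR-1000, which in flies is known to limit the vesicular glutamate transporter in neurons, was also low in the intestine. miR-1000-5p measured 58.8, 52.2 and 47.0 CPM in intestine libraries 1 to 3, against 1260.0 and 1728 CPM in the carcass. The 3 intestine values lay close together and well apart from both carcass values, with a log2 fold change of -4.81 ± 0.29 (SE, edgeR adjusted p = 7.53e-17). miR-1000-3p had no intestine read, against 15 and 21 carcass reads, so that it was at least 2.23-fold lower, with the bound set by 3 reads over the 3 intestine libraries. The hairpin (FBgn0262319, chromosome 3R, 25588859 to 25588958, minus strand) lies opposite an intron of msi, which encodes the RNA-binding protein Musashi. Whether the counting used strand is not given in the sources used here.

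miR-219, which in mammals is known from myelin-forming glia and the circadian clock, was the rarest of the 7 in the intestine. miR-219-5p had 6, 3 and 3 intestine reads (12.6, 9.22 and 10.8 CPM), against 742 and 1340 carcass reads (352 and 364 CPM). The intestine libraries stood at the level of a few reads and the carcass libraries agreed within a few percent. On the log2 scale miR-219-5p was changed by -5.00 ± 0.34 (SE, edgeR adjusted p = 2.10e-15). miR-219-3p had no intestine read and 2 and 9 carcass reads, a difference not detectable at this depth. The gene (FBgn0262376) is on the plus strand of chromosome 3L at 17315006 to 17315105, outside any protein-coding gene.

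miR-929 comes from an intron of cpx, on the same strand. That gene encodes complexin, a protein that clamps synaptic vesicle fusion. miR-929-5p measured 42.0, 33.8 and 65.0 CPM in the intestine, against 402 and 536 CPM in the carcass. All intestine values were lower, with intestine library 3 the highest of them, at a log2 fold change of -3.35 ± 0.29 (SE, edgeR adjusted p = 1.29e-12). miR-929-3p had a single intestine read, in library 3, against 95 and 142 carcass reads. That is a 44.1-fold lower level, for which the 95% interval from counting alone spans 7.85 to 1750. Its fitted log2 fold change of -5.35 rested on that read and was -9.15 without intestine library 3. The hairpin (FBgn0262214) occupies 4295369 to 4295456 on the plus strand of chromosome 3R.

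miR-987 was the least reduced of the 6. miR-987-5p measured 113, 159.8 and 163 CPM in the intestine, against 805 and 697 CPM in the carcass. The tissues did not overlap, at a log2 fold change of -2.39 ± 0.26 (SE, edgeR adjusted p = 2.39e-10). miR-987-3p had 1 intestine read and 12 carcass reads, a ratio of 2.23 with a counting interval of 0.331 to 95.5, so no difference was detectable at this depth. In BDGP6.54 the hairpin (FBgn0262220) lies at 9313023 to 9313116 on the minus strand of chromosome 2R, within introns of the overlapping genes CG13739 and CG13954 on the same strand.

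The photoreceptor microRNA miR-210 had the highest carcass level of the 7 genes. miR-210-3p measured 86.0, 119.9 and 173 CPM in the intestine libraries, against 8339.8 and 14671 CPM in the carcass libraries. It ranked 12 among all 479 arms in the carcass by mean CPM and 104 in the intestine. Its log2 fold change stood at -6.54 ± 0.31 (SE, edgeR adjusted p = 1.05e-19), although the libraries of each tissue differed among themselves more than for miR-124-3p. miR-210-5p had 375 and 994 carcass reads and none in the intestine, which put it at least 85.0-fold lower there. Its fitted log2 fold change, -11.27, was the lowest of all 222 tested arms, but its size depends on the prior count because the intestine held no read. The gene (FBgn0262433) lies at 18128219 to 18128318 on the plus strand of the X chromosome, outside any protein-coding gene. The next microRNA gene on that strand, mir-969, is 3769 bases away. miR-969-5p likewise had no intestine read, against 60 and 184 carcass reads, and was at least 15.1-fold lower. The other arm, miR-969-3p, had 2, 0 and 0 intestine reads and 4 and 24 carcass reads, with overlapping CPM values, and was not tested.

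miR-137, which in mammals is abundant in the brain and acts in neuronal differentiation and at synapses, went the other way. miR-137-3p measured 719.7, 575 and 488 CPM in the intestine, against 283 and 243 CPM in the carcass. Every intestine library was higher than both carcass libraries, and the means were 594 ± 117 CPM (SD, n = 3) and 263 ± 28.3 CPM (SD, n = 2). This 2.27-fold difference was called, with a log2 fold change of 1.18 ± 0.25 (SE, edgeR adjusted p = 8.12e-05). Because the scaling moved the median of all tested arms, from -0.50 with TMM to -1.02 with library totals, the size of this change moved too. With library totals miR-137-3p had a log2 fold change of 0.66 (edgeR adjusted p = 0.0136), and with either scaling it lay 1.68 above the median of all arms. It ranked 75 among the 479 arms in the intestine and 97 in the carcass, and 47 from the top among the 222 fold changes. miR-137-5p had 1, 2 and 1 intestine reads and 2 and 8 carcass reads, with overlapping CPM values, and was not tested. The gene (FBgn0262446) lies at 16065254 to 16065344 on the minus strand of chromosome 2R, outside any protein-coding gene, and its nearest microRNA gene is 119308 bases away.

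**Figure D2:**
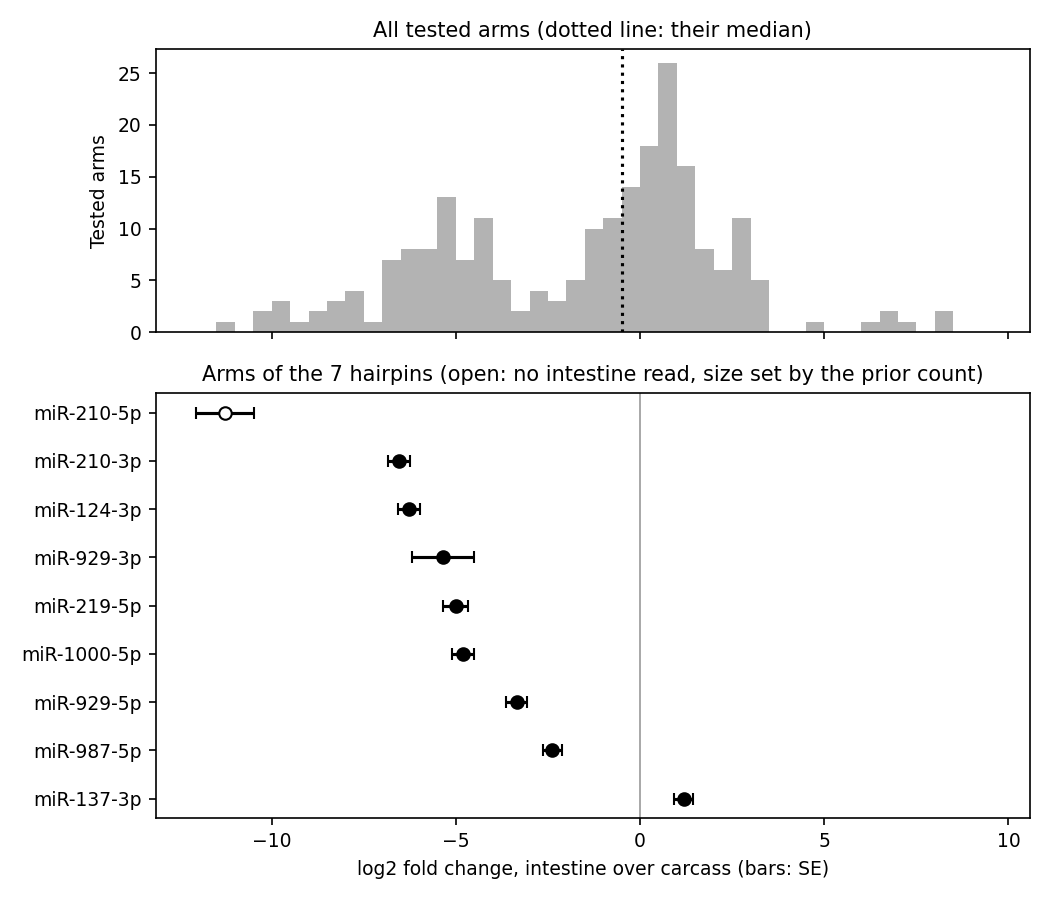
Log2 fold changes, intestine over carcass, of all 222 tested arms (upper panel, number of arms per bin) and of the 9 tested arms of the 7 hairpins (lower panel, points with SE bars). Of the 9 arms, 8 lie between -11.27 and -2.39 and miR-137-3p lies at 1.18, against a median of -0.50 for all tested arms.

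The reduction was graded among the 6 genes. miR-210-3p stood at 0.748, 1.04 and 1.51% of its carcass mean in the 3 intestine libraries, and miR-124-3p at 1.27, 1.03 and 1.59%, so that these ranges overlapped. miR-219-5p, at 3.52, 2.58 and 3.03%, and miR-1000-5p, at 3.93, 3.50 and 3.14%, overlapped each other and lay above both. miR-929-5p followed at 8.95, 7.21 and 13.9%, and miR-987-5p at 15.1, 21.3 and 21.6%. miR-137-3p stood at 273, 218 and 185%. With library totals in place of TMM factors, the mean percents of the 7 arms kept the same order. They then ran from 0.766% for miR-210-3p to 13.4% for miR-987-5p and 157% for miR-137-3p.

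**Figure D3:**
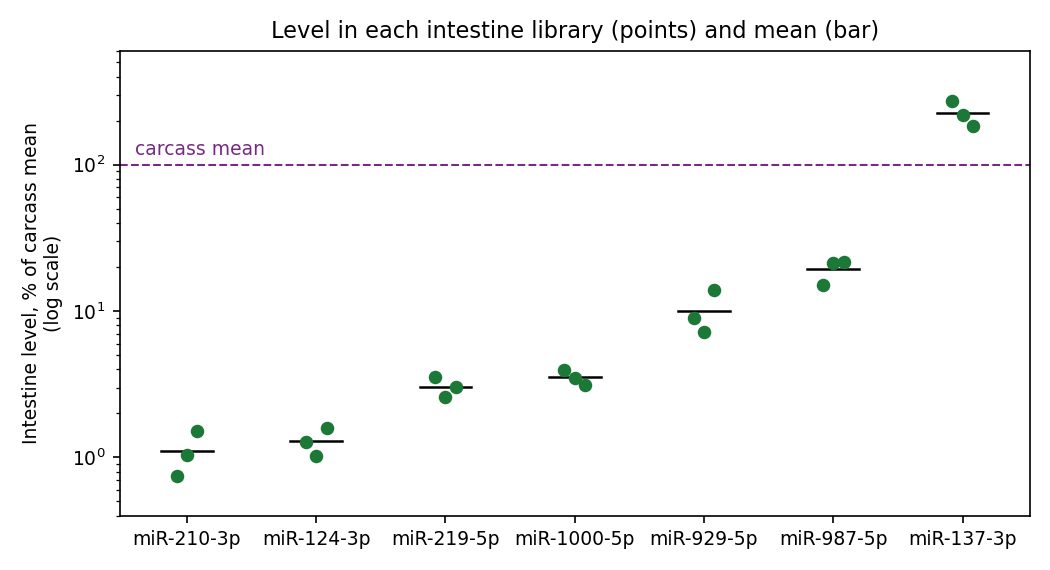
Level of the more read arm of each hairpin in each of the 3 intestine libraries, as percent of its mean over the 2 carcass libraries (TMM-scaled CPM, log scale). Points are libraries and bars are means; the dashed line marks the carcass mean. The means run from 1.10% for miR-210-3p to 19.3% for miR-987-5p, and reach 226% for miR-137-3p.

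For comparison, the summed testis arms stood at 2.12, 1.50 and 2.03% of their carcass mean in the same intestine libraries. The muscle microRNA miR-133-3p stood at 1.15, 0.90 and 2.40%. miR-1-3p, the other muscle microRNA on the list, stood at 28.0, 41.3 and 37.3%. By these values, in every intestine library miR-210-3p and miR-124-3p lay under the testis arms, and the other 4 reduced microRNAs lay above them. The percents rest on few intestine reads. miR-124-3p had 29, 16 and 21 and miR-219-5p 6, 3 and 3. The testis arms summed to 56.7, 40.0 and 54.2 CPM, where 3 reads were 6.29, 9.22 and 10.8 CPM. No interval was computed for these percents, so whether the order exceeds counting error was not tested. The part of other organs carried along in dissection was not tested.

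The order of the levels also differed between the tissues. In the intestine miR-137-3p was highest, followed by miR-987-5p and miR-210-3p, whose ranges overlapped. Then came miR-124-3p, miR-1000-5p and miR-929-5p, with overlaps between neighbours, and miR-219-5p was lowest. In the carcass the order was miR-210-3p, miR-124-3p, miR-1000-5p, miR-987-5p, miR-929-5p, miR-219-5p and miR-137-3p, and no neighbours overlapped over the 2 libraries. Levels of different arms can also differ through ligation and amplification of each small RNA, the part of which was not tested.

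mir-137 was set against each of the others by the ratio of reads within a library, which does not depend on scaling. For the ratios, 0.5 was added to each count. The ratio of miR-137-3p to miR-124-3p was 11.6, 11.4 and 6.30 in the intestine libraries, and 0.0691 and 0.0446 in the carcass libraries. For miR-210-3p the intestine libraries had ratios of 8.28, 4.75 and 2.79, against 0.0340 and 0.0166 for the carcass libraries. Even against miR-987-5p, the least reduced, the intestine ratios were 6.30, 3.57 and 2.98, against carcass ratios of 0.352 and 0.349. miR-137-3p outnumbered each of the 6 in every intestine library and was outnumbered by each of them in both carcass libraries. On the log2 scale the intestine ratio exceeded the carcass ratio by between 3.53 (miR-987-5p) and 7.66 (miR-210-3p). The difference was 7.41 for miR-124-3p, 6.03 for miR-219-5p, 5.94 for miR-1000-5p and 4.48 for miR-929-5p. The tissues did not overlap in any of the 6 ratios, and the exact permutation test gave two-sided p = 0.2 for each (adjusted over 6, 0.2), the smallest that 3 against 2 libraries allow. As mir-137 was singled out with its direction known and is the numerator of all 6 ratios, they are a description and not 6 separate results.

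**Figure D4:**
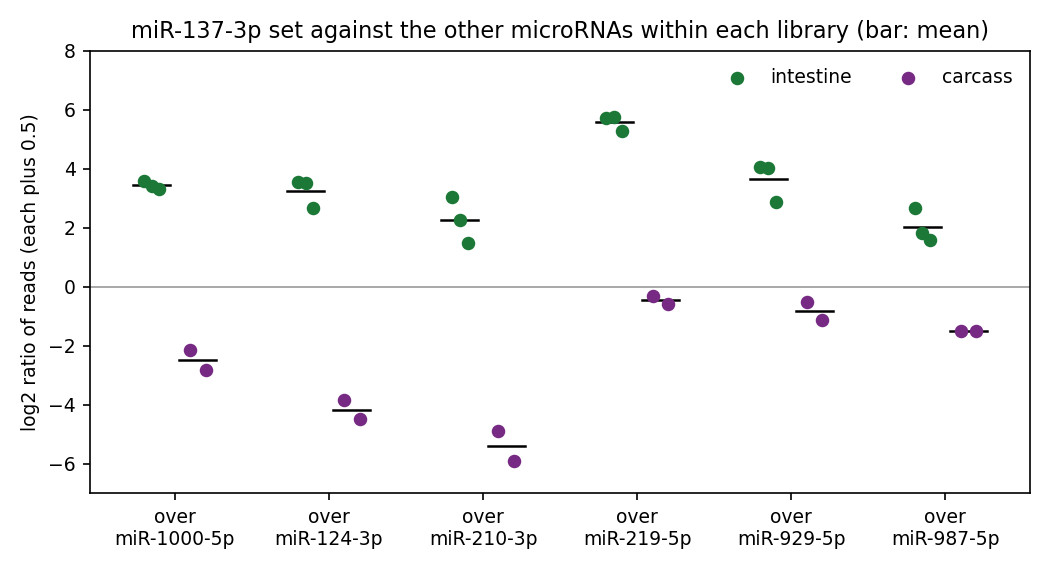
Log2 ratio of miR-137-3p reads to the reads of the more read arm of each other hairpin, each count plus 0.5, in every library (points) with the tissue mean (bars). All 18 intestine points lie above 0 and all 12 carcass points lie under it.

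The carcass libraries differed from each other in these microRNAs to unequal degrees. In library 2 miR-210-3p was 1.76 times, miR-1000-5p 1.37 times, miR-124-3p 1.33 times and miR-929-5p 1.33 times its level in library 1. miR-219-5p was nearly equal, at 1.04 times. miR-987-5p and miR-137-3p were lower in library 2, at 0.865 and 0.859 times. Over all 222 tested arms the median of this ratio was 1.10, and the central 80% lay between 0.790 and 1.59, so that miR-210-3p alone was outside that range. The summed testis arms were at 1.02 times and miR-133-3p at 1.62 times. Except for miR-137-3p, these differences are small beside those between the tissues. The intestine mean of miR-137-3p was 226% of its carcass mean, or 157% with library totals.

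The arm in use was the same in both tissues as far as the reads could show. The 3p arm gave most reads of mir-124, mir-137 and mir-210 in every library, and the 5p arm most of those of mir-219, mir-929, mir-987 and mir-1000. In both carcass libraries the minor arm was most frequent for mir-929, whose 3p arm held 0, 0 and 5.26% of the hairpin's reads in the intestine libraries, against 10.1 and 6.72% in the carcass libraries. The exact 95% intervals were 0 to 16.8, 0 to 28.5 and 0.133 to 26.0% in the intestine, where 20, 11 and 19 reads were available, so they include both carcass values. The minor arm of mir-210 held 0% in each intestine library, with upper limits of 7.40 to 9.03%, and 2.09 and 1.81% in the carcass libraries. No difference in arm share was detectable at this depth for mir-210 or mir-929. Of the 6 hairpins with at least 10 reads in every library, mir-210, mir-929 and mir-1000 had an exact two-sided permutation p of 0.2, and mir-124, mir-137 and mir-987 had 1 (adjusted p 0.4 and 1). As 0.2 is the smallest p that 3 against 2 libraries allow, this test could not decide whether the shares differ. mir-219 had too few intestine reads for this comparison. As reads without molecular identifiers are not independent molecules, these intervals and all bounds reflect counting error alone.

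Other microRNAs with a described role in the fly nervous system or sense organs gave a mixed picture. Of 25 arms of 13 such hairpins, 21 were tested, of which 8 were lower in the intestine, 4 were higher and 9 were not called, beside the 48.2% lower and 34.7% higher of all tested arms. Of the 8 lower arms, miR-285-5p, miR-285-3p and miR-1017-3p passed the low-count filter in the carcass only, so these 3 calls are no support for the list. The log2 fold changes of the 21 had a median of -0.21, and those of all tested arms -0.50. Those called lower include miR-285-5p, with 0 intestine reads and 40 and 135 carcass reads, which was at least 10.9-fold lower. miR-263b-5p, known from the survival of sensory bristle cells, had a log2 fold change of -6.55 (SE 0.33). Among those called higher were the less read row of let-7, a regulator of developmental timing (1.34, SE 0.25), and miR-996-5p, a relative of miR-279 (1.32, SE 0.26). Many of this list, such as let-7 and miR-34, are known from other tissues as well. With library totals 13 of the 21 were called lower and 3 higher.

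The arms whose profile over the 5 libraries was most like that of miR-124-3p were miR-2494-3p, miR-977-3p and miR-993-3p, at root mean square distances of 0.23, 0.24 and 0.24 between centred log2 CPM values. miR-2494-3p and miR-977-3p had no intestine read, so their distance depends on the prior count. miR-977-3p is also among the testis arms summed above. miR-993-3p had 3 reads in each intestine library, against 1340 and 3351 in the carcass libraries. For miR-137-3p the nearest were miR-306-5p, miR-33-3p and miR-305-3p, at distances of 0.12, 0.12 and 0.13, with log2 fold changes of 1.28, 1.34 and 1.17. None of the 6 nearest arms belonged to the 7 genes.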

How the data were processed

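The deposited table holds raw whole-number read counts for each mature microRNA arm in each library. Per the labels' protocols, total RNA was size-selected on gels to 18 to 29 nt, ligated to linkers and sequenced. Per the submitters' processing notes, cutadapt 1.9.1, Bowtie2 2.3.2, featureCounts and Subread 2.0.0 were used. Build, annotation release, strand setting and the handling of multiply matching reads: not given in the sources used here. Totals are microRNA reads, not library depth.

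Groups and replicate numbers came from the sample titles. Separate animals are not stated for the replicates, and p-values therefore reflect spread between libraries that may be technical. No library pair of a tissue agreed within sampling noise (chi-square per degree of freedom of at least 10.9).

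Counts were tested over all arms in R 4.3.3 with edgeR 4.0.16, using filterByExpr (minimum count 10, minimum total 15, 222 arms kept), TMM factors, the quasi-likelihood test with tissue alone, and Benjamini-Hochberg adjustment. Standard errors were derived from the log2 fold change and the square root of its F statistic. Tests for ratios and arm shares were exact permutations over libraries. The test was checked on simulated data. Alternatives were other scalings and filters, DESeq2 1.42.0, limma-voom (limma 3.58.1), a robust fit, a replicate block, thinning and leaving out each library.

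Of the 479 rows, 473 matched the BDGP6.54 annotation by name, including all 14 described here. Arms were assigned by position in the hairpin, and all coordinates are from that build. Mature sequences are not shown here.

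The genes and lists were chosen with earlier results of these data known. Every row of the 7 genes is accounted for. Beside them the text names the 3 arms nearest in profile to miR-124-3p and miR-137-3p, and from the wider list the called arms with the 2 highest and 2 lowest fold changes. mir-287 and mir-969 are named as genomic neighbours.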

Additional observations from a re-analysis of the deposited data

How the results depend on the processing

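All 9 tested arms of the 7 genes kept their direction and their call under all 16 alternatives to the edgeR fit. The count called lower ran from 8 to 10 (10 without the low-count filter, where 14 arms were tested), and the count called higher stayed at 1. The log2 fold change of miR-137-3p ran from 0.66 with library totals to 1.31 without carcass replicate 1, and that of miR-987-5p from -2.91 to -2.27. The sizes for miR-210-5p (-11.57 to -7.28) and miR-929-3p (-9.15 to -4.34) are loosely set, as they rest on 0 and 1 intestine reads. Over all arms, 50 were called higher with library totals, against 77. In the wider nervous system list, 13 of 21 were called lower with library totals and 13 of 25 without the filter, against 8 of 21.

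The differences in log2 ratio between miR-137-3p and the other 6 kept their sign under every alternative, with the lowest value, 3.22, for miR-987-5p. Differences in the 3p share, intestine minus carcass, were not stable in sign for 3 hairpins. For mir-137 the difference was -0.0856 percentage points, 0.067 with pooled reads, and from -0.361 to 0.19 with a library left out. For mir-124 it was -0.949, and from -1.51 to 0.162 with a library left out. For mir-987 it was 0.356, and from -0.273 to 0.67.

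With the replicate block, which takes intestine replicate 3 out of the tissue contrast, 8 arms of the 7 genes were lower and 1 higher, and over all arms 107 were lower and 73 higher. The deviations of same-numbered libraries from their tissue mean had correlations of 0.0258 and 0.021 over arms (only 2 pairs). The 2 carcass libraries deviate from their mean by equal and opposite amounts. These correlations are therefore not 2 separate checks and cannot decide whether the libraries were paired. The numbers were not taken as pairs. Where a carcass library was left out, the spread of the other was taken from the intestine. The minor arms of mir-124, mir-137, mir-219, mir-987 and mir-1000 did not pass the low-count filter. Without it, miR-124-5p and miR-1000-3p were called lower in the intestine and the other 3 were not called.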
